A study of Mus musculus with 22 samples.

Results

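The cyclins of the G1 phase, their kinases Cdk4 and Cdk6 and the inhibitors of these kinases were followed at the mRNA level in mouse chondrocytes that carried or lacked Dnmt1, the gene of a DNA methyltransferase. The set held 10 genes, taken by exact match of the gene symbol: the D-type cyclins Ccnd1, Ccnd2 and Ccnd3, the kinases Cdk4 and Cdk6, the INK4 inhibitors Cdkn2a, Cdkn2b, Cdkn2c and Cdkn2d, and the Cip/Kip inhibitor Cdkn1b. All 10 were present in each count table, among 34866 genes listed for the cultures and 23911 for the cartilage. The 14 culture samples were primary chondrocytes of knee articular cartilage, taken from mice aged postnatal day 3 to 5. Control cultures carried the genotype Dnmt1 flox and mutant cultures (cKO) the genotype Prrx1-Cre;Dnmt1 flox/flox. Of each genotype, 3 samples were untreated (day 0) and 4 had received bone morphogenetic protein 2 (BMP2, given as 100 ng/µl), a growth factor that drives chondrocyte differentiation, for 3 days (day 3). The 8 cartilage samples were from mice at postnatal day 5, with 4 labelled flox (control) and 4 labelled cKO. Each cartilage group held 2 males (replicates 1 and 2) and 2 females (replicates 3 and 4). The labels gave neither the Cre status nor the number of floxed alleles of the controls, and no sex or litter for the cultures. Prrx1-Cre is active in the early limb mesenchyme, from which connective tissue and bone cells of the limb also descend, so the deletion it drives is not limited to chondrocytes.

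A cell that is to divide must pass from G1 into DNA synthesis. D-type cyclins are made in response to growth signals and bind Cdk4 or Cdk6, and the active kinases phosphorylate the retinoblastoma protein, which then releases E2F transcription factors. INK4 proteins bind Cdk4 and Cdk6 directly and keep the cyclins from joining them, whereas Cdkn1b (p27Kip1) acts mainly on cyclin-Cdk2 complexes. In growth plate cartilage, chondrocytes leave the cell cycle as they mature, and cyclin D1 and the Cip/Kip inhibitors are known regulators of that exit.

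The library totals were 41749327 to 51741478 counts in day 0 cultures, 14434197 to 18918714 in day 3 cultures and 1100198 to 1888896 in cartilage. Levels are given as CPM, counts relative to the library total with TMM factors (edgeR's trimmed-mean scaling). Changes are log2 ratios of levels (log2 fold changes) with standard error (SE), cKO over control or day 3 over day 0. They were called at an adjusted p under 0.05 in edgeR's quasi-likelihood test with Benjamini-Hochberg adjustment over all genes tested. Dnmt1 itself was lower in cKO than in control samples in every setting, with 27.8 ± 3.09 against 151.3 ± 6.61 CPM at day 0 (SD, n = 3 each), 26.6 ± 11.8 against 70.8 ± 8.63 CPM at day 3 and 13.2 ± 1.09 against 42.5 ± 6.18 CPM in cartilage (SD, n = 4 each). In the second deposited cartilage table, of estimated counts, it was 30.6 ± 3.30 against 52.9 ± 7.60 CPM, and the log2 ratio was −0.78 (edgeR adjusted p 0.0108) in place of −1.66. The 8 chondrocyte markers examined (Col2a1, Acan, Sox9, Col9a1, Col11a2, Matn1, Hapln1 and Comp) were detected in every group, and all 8 were called lower in cKO cultures at both days. Their summed level at day 3 was 88654 to 109274 CPM in controls and 1205 to 16422 CPM in cKO cultures. The summed level of 8 skeletal muscle genes was 1.19 to 1.67 CPM in controls, where Myod1 and Myog were at the floor of 3 counts, and 152.7 to 1919 CPM in cKO cultures. Among other lists at day 3, 3 of 5 tested osteoclast and macrophage genes and 3 of 4 osteoblast genes were called higher in cKO cultures, against 25.5% of all genes tested. The osteoclast and macrophage sum was 123.1 to 153.2 CPM in controls, 110.5 to 129.1 CPM in cKO replicates 1 to 3 and 469 CPM in cKO replicate 4. The osteoblast sum was 44.4 to 77.7 CPM in controls and 153.3 to 388.6 CPM in cKO cultures. The adipocyte sum was 1.39 to 2.88 and 27.3 to 42.0 CPM. At day 0 the muscle sum was 6.24 to 6.92 CPM in controls and 40.5 to 52.2 CPM in cKO cultures. The osteoclast and macrophage sum was 161.9 to 166.8 and 78.9 to 92.5 CPM at day 0. Of its 7 tested genes 4 were called higher and 1 lower, against 33.0 and 31.6% of all genes tested. In cartilage the summed chondrocyte level was 61803 to 93289 CPM in controls and 28088 to 57119 CPM in cKO samples. All 8 chondrocyte markers had negative log2 ratios there, and Hapln1 and Matn1 were called lower. The osteoclast genes Acp5, Ctsk and Mmp9, the 3 tested of 8 osteoclast and macrophage genes, were called lower in cKO cartilage (median −3.42), and the list's sum was 145.6 to 488 CPM in controls and 70.5 to 139.2 CPM in cKO. Both tested erythroid genes (median −1.91) and the pericyte gene Rgs5 (−1.68), 1 of 5 tested endothelial and pericyte genes, were also lower, and Des was the 1 tested muscle gene and was higher (1.44). The summed erythroid level was 135.8 to 721 CPM in controls and 8.40 to 315 CPM in cKO samples, and the endothelial and pericyte level 107.3 to 230.1 and 50.4 to 116.9 CPM. The part of these shifts in the results below was not tested, and in bulk samples fewer cells of a type and less RNA per cell cannot be told apart. The library of day 3 cKO replicate 4 stood apart, with a chi-square divided by its degrees of freedom between 123.9 and 138.4 against the other cKO libraries of that day, beside 7.42 to 10.9 among those. It held the lowest chondrocyte sum (1205 CPM against 11460 to 16422) and the lowest muscle sum (152.7 CPM against 1132 to 1919), so values of the 10 genes that it moved by over 1.5 times, or whose call it changed, are also given without it. In cartilage the control libraries were sequenced as pool 1 and the cKO libraries as pool 2, so pool and genotype cannot be told apart. Day, BMP2 and count table changed together in the cultures and cannot be told apart either.

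In untreated cultures, loss of Dnmt1 went with more cyclin D1 mRNA and more mRNA of the inhibitors Cdkn2a and Cdkn2b, and with slightly less Ccnd3, Cdk4 and Cdk6. These 6 of 10 genes were called, 3 higher and 3 lower, where 64.5% of the 15530 genes tested were called (33.0% higher and 31.6% lower). After 3 days of BMP2 the cyclin D1 difference was no longer seen, while Cdkn2a and Cdkn2b were higher and Ccnd3, Cdk4 and Cdk6 lower in cKO cultures. That made 5 of 10 genes, against 48.1% of 13924 genes tested (25.5% higher and 22.6% lower). In cartilage, where osteoclast, erythroid and some chondrocyte genes were also lower, Ccnd1 and Ccnd2 were higher and Cdkn2d was lower in cKO samples, so 3 of the 7 genes that passed the filter on low counts were called, against 6.19% of 8793 genes tested (3.15% higher and 3.04% lower). The shares called in the cultures were close to the share of all genes, so the counts alone do not set the 10 genes apart there. The median log2 fold change over the 10 genes was −0.01 at day 0 and −0.13 at day 3, and over the 7 tested in cartilage −0.33, beside 0.01 over all genes tested in each setting. Scaling by library totals alone moved the all-gene median to 0.12 at day 0 and to 0.06 at day 3 and in cartilage. It raised the share of calls that were higher from 51.1 to 63.6% in untreated cultures, and in cartilage from 50.9 to 64.9%.

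**Figure D1:**
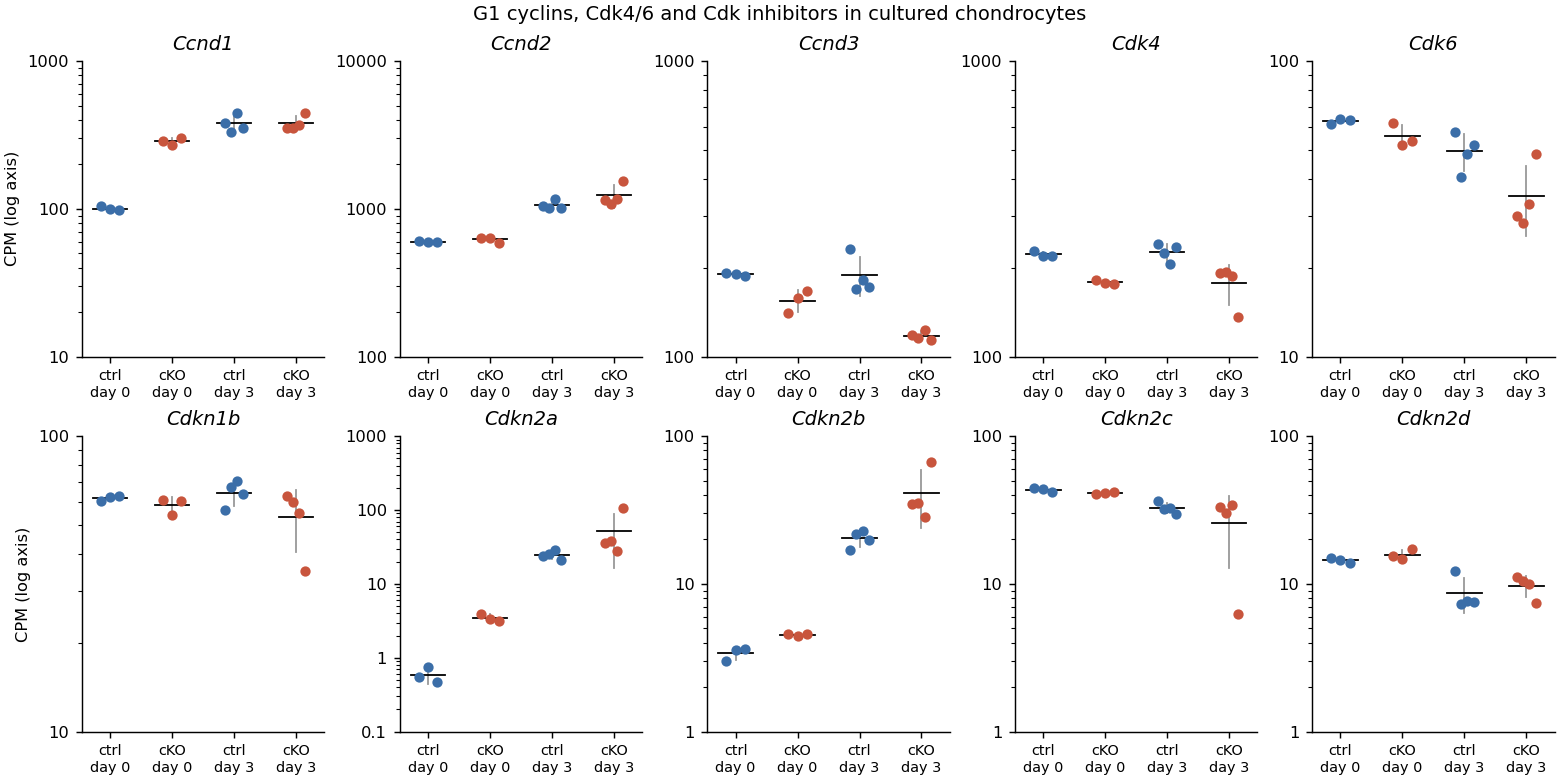
CPM of the 10 genes in every culture sample on log axes, in untreated cultures (day 0, n = 3 per genotype) and after 3 days of BMP2 (day 3, n = 4), with controls in blue and cKO in red. Points are samples, horizontal lines are means and grey bars are ± 1 SD; Ccnd1 separates the genotypes at day 0 only, and Cdkn2a and Cdkn2b lie far higher at day 3 than at day 0 in both genotypes.

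**Figure D2:**
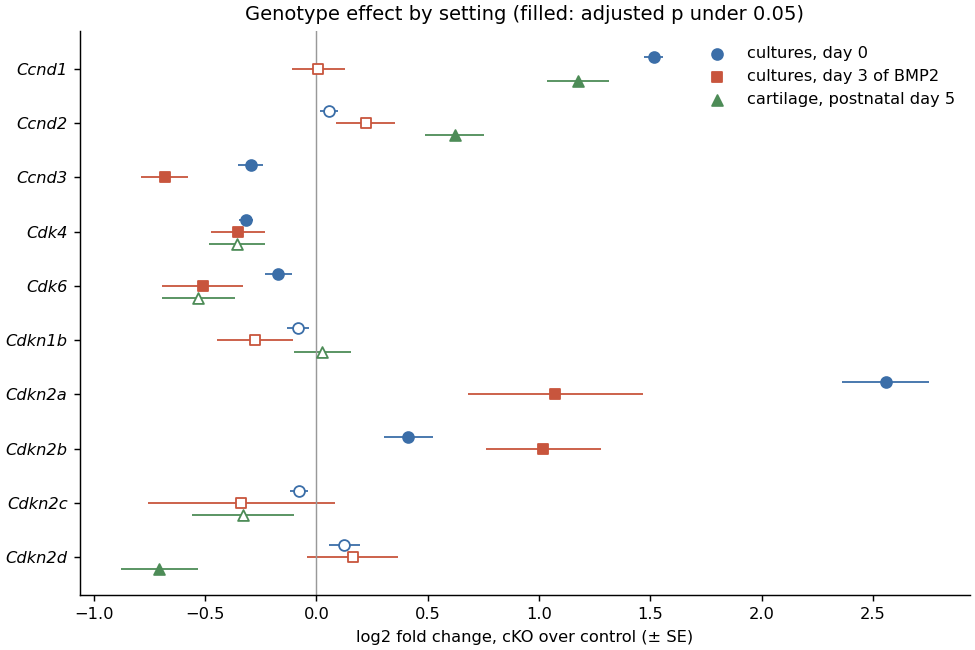
Log2 fold change of cKO over control with its SE for each gene in day 0 cultures (circles), day 3 cultures (squares) and cartilage (triangles). Filled symbols passed an adjusted p of 0.05 and open ones did not; Ccnd3, Cdkn2a and Cdkn2b have no cartilage value because they fell below the filter on low counts.

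Ccnd1 (chr7:144929931-144939925 on GRCm38, minus strand) encodes cyclin D1, the D-type cyclin best known for induction by growth factors. Untreated control replicates 1 to 3 had 103.9, 99.3 and 98.0 CPM, whereas the cKO replicates had 286, 272 and 302 CPM. Every cKO culture was far above every control. Mean levels came to 100.4 ± 3.12 and 287 ± 15.1 CPM (SD, n = 3 each), a log2 ratio of 1.52 (SE 0.04, edgeR adjusted p 1.48e-08). After BMP2 the values were 381, 330.4, 447 and 355 CPM in the control cultures (replicates 1 to 4) and 355, 352, 369 and 446 CPM in the cKO cultures. The 2 groups overlapped almost entirely, and the log2 ratio was 0.01 (SE 0.12, edgeR adjusted p 0.961), or −0.08 without cKO replicate 4. The genotype effect thus differed between the days: the difference of the log2 fold changes, day 3 minus day 0, was −1.53 (SE 0.14, edgeR adjusted p 4.46e-05). Ccnd1 was the 1 gene of the 10 with such a call, where 16.8% of 14909 genes tested had one (9.94% higher and 6.89% lower).

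The change over the 3 days of BMP2 shows where the genotypes met. With the 14 cultures scaled together, Ccnd1 rose in controls from 104.6 ± 3.21 to 368 ± 47.8 CPM, a log2 ratio of 1.82 (SE 0.10, edgeR adjusted p 5.05e-08). In cKO cultures it went from 299.6 ± 16.1 to 366 ± 36.2 CPM, a log2 ratio of 0.29 (SE 0.10, edgeR adjusted p 0.0219). That smaller rise lost its call without day 0 cKO replicate 1 or 2 or day 3 cKO replicate 3, with adjusted p up to 0.0925. The level in untreated cKO cultures lay nearer to the day 3 levels of both genotypes than to that of untreated controls. In cartilage, control replicates 1 to 4 had 40.5, 41.0, 33.0 and 42.7 CPM and cKO replicates 89.0, 81.3, 91.9 and 95.6 CPM. No sample overlapped, and both sexes showed the same order. The log2 ratio was 1.17 (SE 0.14, edgeR adjusted p 5.59e-05), and 1.27 (SE 0.14, edgeR adjusted p 4.79e-05) in the estimated counts.

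Ccnd2 (chr6:127125162-127152193, minus strand) encodes cyclin D2, whose mean mRNA level per kb of exon was the highest of the D-type cyclins in all 4 culture groups. In untreated cultures it measured 605, 594 and 598 CPM in controls and 639, 639 and 592 CPM in cKO, overlapping groups with a log2 ratio of 0.06 (SE 0.04, edgeR adjusted p 0.257). At day 3 it was 1042, 1015, 1175 and 1011 CPM in controls and 1153, 1073, 1167 and 1552 CPM in cKO. Only cKO replicate 4 lay above all controls, and the log2 ratio was 0.22 (SE 0.13, edgeR adjusted p 0.203), or 0.09 without that library. Over the 3 days of BMP2 Ccnd2 rose in both genotypes, by log2 fold changes of 0.73 in controls (SE 0.11, edgeR adjusted p 7.74e-05) and 0.87 in cKO cultures (SE 0.11, edgeR adjusted p 1.64e-05). The difference between these rises was 0.14 (SE 0.15, edgeR adjusted p 0.56), or 0.03 without day 3 cKO replicate 4. In cartilage the controls had 477, 471, 449 and 566 CPM and the cKO samples 708, 764, 830.5 and 720.1 CPM. All cKO samples were above all controls, with a log2 ratio of 0.62 (SE 0.13, edgeR adjusted p 0.00906) and of 0.57 in the estimated counts (SE 0.11, edgeR adjusted p 0.00858).

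Ccnd3 (chr17:47505051-47599691, plus strand), which encodes cyclin D3, moved the other way in the cultures. At day 0 it measured 191.6, 189.9 and 188.1 CPM in controls and 140.2, 157.5 and 166.3 CPM in cKO cultures. All 3 cKO values were below all controls, with a log2 ratio of −0.30 (SE 0.05, edgeR adjusted p 0.00118). After BMP2 the controls had 231, 169.4, 182.2 and 172.1 CPM and the cKO cultures 118.3, 115.8, 123.0 and 113.9 CPM. The cKO libraries, replicate 4 included, lay close together and well below the controls, with a log2 ratio of −0.68 (SE 0.11, edgeR adjusted p 0.00102). From day 0 to day 3 Ccnd3 fell in cKO cultures with a log2 ratio of −0.51 (SE 0.10, edgeR adjusted p 0.000575). In controls the change was −0.11 (SE 0.10, edgeR adjusted p 0.381), and −0.22 (edgeR adjusted p 0.0144) without control replicate 1 of day 3, the highest control. The difference between the genotypes in this change was −0.40 (SE 0.14, edgeR adjusted p 0.0653), and −0.29 (edgeR adjusted p 0.049) without that replicate.

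Ccnd3 in cartilage depended on the deposited table. In the whole-number counts it had 5 to 24 counts per library, 8.11 ± 2.92 CPM in controls and 7.83 ± 3.33 CPM in cKO samples (SD, n = 4 each), and was not tested. The estimated counts gave 111 CPM over the 8 libraries against 7.97 CPM in the whole-number table, a ratio of 13.9. In the estimated counts the log2 fold change of cKO over control was 0.00 (SE 0.21, edgeR adjusted p 1). For Ccnd1 and Cdk4 the same ratio of tables was 2.09 and 1.91. The median ratio over 8486 genes was 0.872, with 10th and 90th percentiles of 0.806 and 1.57, and the other 5 tested genes of the set ran from 0.804 to 1.09. Ccnd3, Ccnd1 and Cdk4 share 361, 1100 and 641 bases of exon with the protein-coding genes Bysl, LTO1 and Tspan31 on the opposite strand. Ccnd2 shares 372 and 368 bases with the antisense genes Gm43126 and 9330179D12Rik, and Cdk6 shares 368 with Gm17590. For Ccnd2 and Cdk6 the ratio of tables was 1.09 and 1.05. Whether this sharing bears on the ratio was not tested. Bysl, LTO1 and Tspan31 had 14.4, 7.02 and 0.70 CPM in control cartilage in the whole-number table and 24.2, 21.9 and 6.61 CPM in the estimated one.

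**Figure D3:**
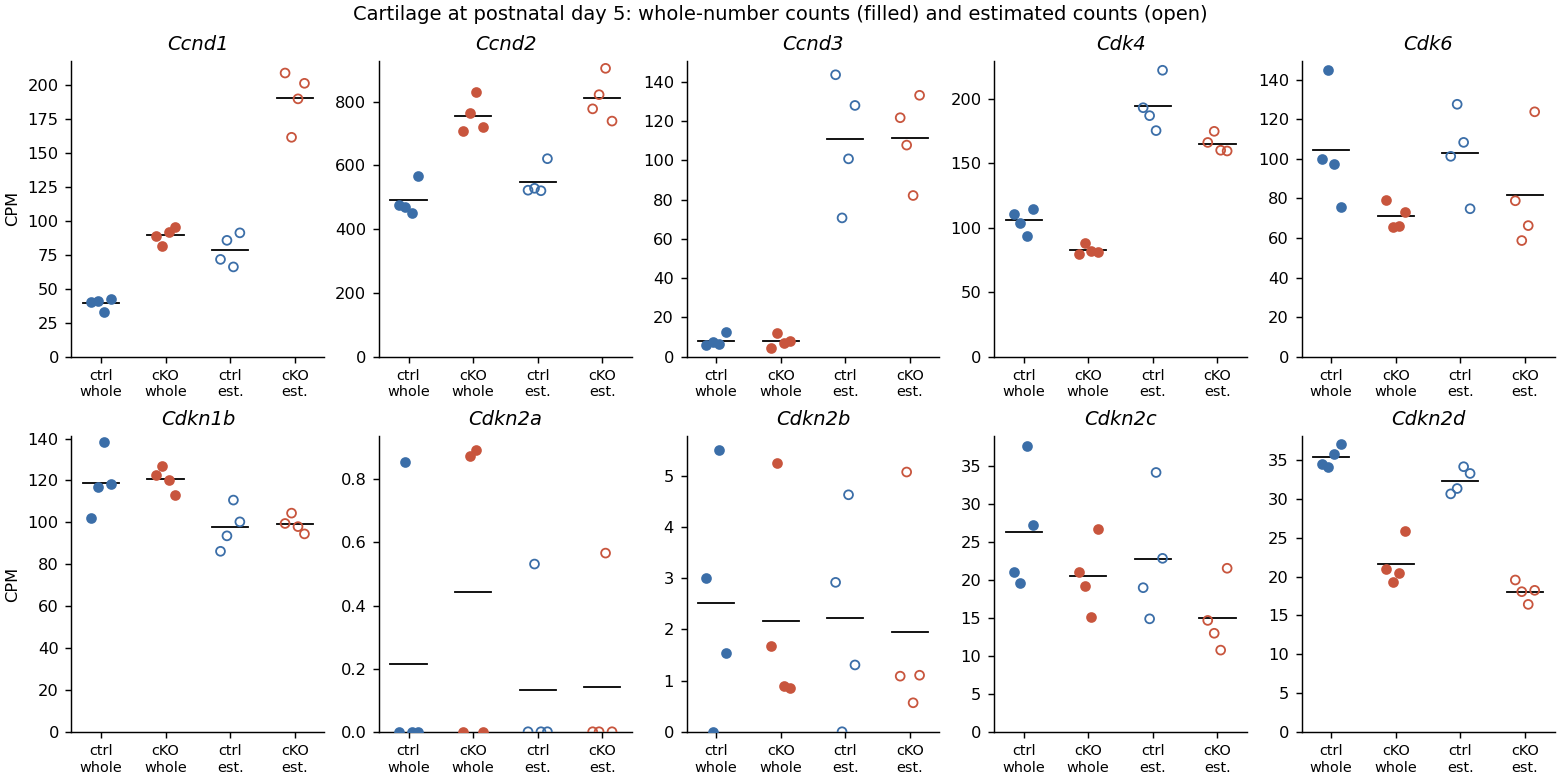
CPM of the 10 genes in each cartilage sample at postnatal day 5 (4 controls in blue, 4 cKO in red), from whole-number counts (filled) and estimated counts (open), with linear axes from 0 and lines at the means. Ccnd1 and Ccnd2 separate the genotypes in both tables, Ccnd3 differs by table rather than by genotype, and Cdkn2a lies at 1 count or fewer.

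To set genes side by side, CPM was divided by the joined length of all annotated exons of a gene. That length was 4709 bases for Ccnd1, 9409 for Ccnd2 and 8775 for Ccnd3. A transcript can be shorter, so all orders and shares per kb in this text depend on this divisor. On this measure the D-type cyclins were ordered Ccnd2, Ccnd3 and Ccnd1 in untreated controls, at 66.4 ± 0.63, 22.6 ± 0.19 and 22.2 ± 0.68 CPM per kb (SD, n = 3). The last pair differed by less than the SD of Ccnd1. In untreated cKO cultures the order was Ccnd2 (69.2 ± 2.96), Ccnd1 (63.6 ± 3.41) and Ccnd3 (18.4 ± 1.6 CPM per kb), and at day 3 it was the same in both genotypes. The order of the first pair in untreated cKO cultures held for the means but not in replicate 3, where Ccnd1 was at 67.1 and Ccnd2 at 65.7 CPM per kb. Ccnd1 thus made up 19.99 ± 0.37% of the D-type cyclin mRNA in control cultures and 42.1 ± 1.87% in cKO cultures at day 0, and 37.3 ± 1.61% and 35.9 ± 0.97% at day 3. Their summed level was 111.1 ± 1.4 and 151.2 ± 1.38 CPM per kb at day 0, and 208.9 ± 18.3 and 216.9 ± 26.8 CPM per kb at day 3. The share of Ccnd3 was lowest in cKO cultures at day 3, at 6.04 ± 0.85%, against 10.05 ± 1.46% in the controls of that day.

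**Figure D4:**
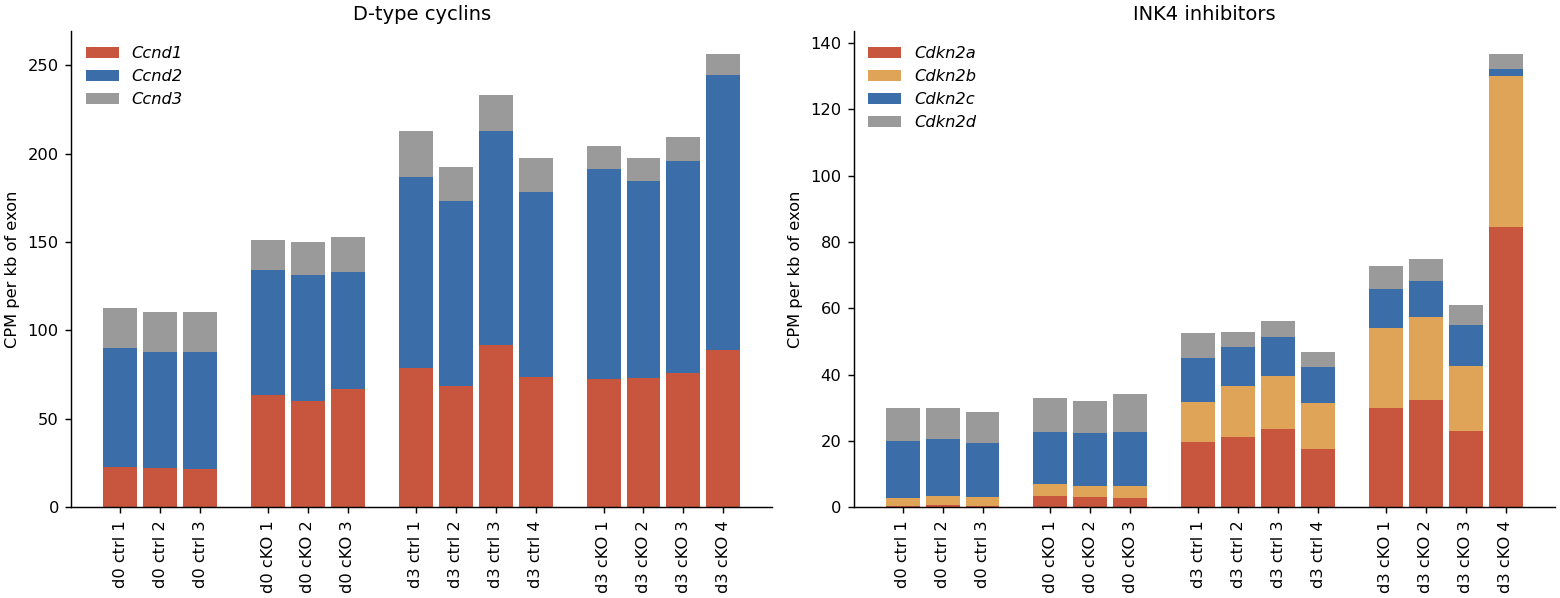
Stacked CPM per kb of exon in each culture sample for the D-type cyclins (left) and the INK4 inhibitors (right), with the 14 libraries scaled together. Ccnd1 fills about 20% of the left bars in day 0 controls and about 42% in day 0 cKO samples, and Cdkn2a and Cdkn2b fill most of the right bars at day 3, most of all in cKO replicate 4.

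Cdk4 (chr10:127063534-127067920, plus strand), a kinase partner of the D-type cyclins, was lower in cKO cultures at both days. At day 0 it measured 227.5, 219.9 and 219.3 CPM in controls and 181.5, 177.7 and 176.1 CPM in cKO. The groups did not overlap, and the log2 ratio was −0.32 (SE 0.03, edgeR adjusted p 1.49e-05). Day 3 controls had 239.9, 223.5, 205.2 and 234.8 CPM and the cKO cultures 191.3, 193.0, 187.6 and 136.1 CPM. All cKO cultures were below all controls, replicate 4 furthest, with a log2 ratio of −0.35 (SE 0.12, edgeR adjusted p 0.0392) and of −0.25 without replicate 4 (SE 0.07, edgeR adjusted p 0.0107). That call was lost without cKO replicate 3 or control replicate 1, 2 or 4 (adjusted p up to 0.0859), with library totals alone (adjusted p 0.137) and with the replicate number as a block (adjusted p 0.0773). No change from day 0 to day 3 was called in controls (−0.07, SE 0.11, edgeR adjusted p 0.593) or in cKO cultures (−0.13, SE 0.11, edgeR adjusted p 0.338), where the value was −0.0086 without replicate 4. In cartilage Cdk4 measured 111.1, 104.1, 93.6 and 114.3 CPM in controls and 79.8, 88.3, 82.1 and 81.0 CPM in cKO. These groups did not overlap either, but the log2 fold change of −0.36 (SE 0.13) did not pass the test (edgeR adjusted p 0.108), nor did −0.24 in the estimated counts (edgeR adjusted p 0.247).

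Cdk6 (chr5:3341485-3531008, plus strand), the other kinase that binds D-type cyclins, had 61.5, 63.8 and 63.1 CPM in day 0 controls and 61.6, 52.1 and 53.5 CPM in cKO cultures. Replicate 1 of the cKO cultures lay within the controls, and the log2 ratio was −0.17 (SE 0.06, edgeR adjusted p 0.0315). Leaving out any library but cKO replicate 1 ended that call (adjusted p up to 0.0946), and so did scaling by library totals alone (adjusted p 0.39) and the fit of all 14 cultures (adjusted p 0.436). Day 3 controls had 57.5, 40.6, 48.3 and 52.1 CPM and the cKO cultures 30.004, 28.3, 32.7 and 48.4 CPM. Replicates 1 to 3 of the cKO cultures were below every control and replicate 4 was among them. The log2 ratio was −0.51 (SE 0.18, edgeR adjusted p 0.0454), and −0.71 (SE 0.11, edgeR adjusted p 0.000648) without replicate 4. The call was lost without cKO replicate 1, 2 or 3 or control replicate 1, 3 or 4, with adjusted p up to 0.11, and with RLE scaling (adjusted p 0.0501).

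From day 0 to day 3 Cdk6 fell in cKO cultures with a log2 ratio of −0.80 (SE 0.15, edgeR adjusted p 0.000588) and in controls with −0.44 (SE 0.15, edgeR adjusted p 0.0271). The control call was lost without any 1 of the day 0 controls or control replicate 2 or 3 of day 3 (adjusted p up to 0.0796), and with library totals alone (adjusted p 0.0739). The difference between the 2 falls was −0.36 (SE 0.22, edgeR adjusted p 0.291), and −0.54 (SE 0.14, edgeR adjusted p 0.0125) without day 3 cKO replicate 4. In cartilage Cdk6 measured 99.8, 145.0, 97.2 and 75.7 CPM in controls and 78.9, 65.6, 66.0 and 73.2 CPM in cKO. The groups overlapped at control replicate 4, and the log2 ratio was −0.53 (SE 0.16, edgeR adjusted p 0.0693), or −0.67 (edgeR adjusted p 0.0308) without that replicate. It was −0.57 (edgeR adjusted p 0.0202) with no filter on low counts and −0.33 (SE 0.23, edgeR adjusted p 0.426) in the estimated counts. The joined exons measure 13989 bases for Cdk6 and 3249 for Cdk4. Per kb of exon, Cdk6 made up 6.16 ± 0.22% of the summed level of the 2 kinases in day 0 controls. Its share was 6.76 ± 0.49% in day 0 cKO cultures (SD, n = 3 each). At day 3 the share was 4.85 ± 0.56% in controls and 4.58 ± 2.05% in cKO cultures (SD, n = 4 each). The day 3 cKO cultures ran from 3.29 to 7.63%, and the highest share was that of replicate 4.

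Over the 3 days of BMP2, 6 of the 10 genes changed in controls, against 56.9% of the 14909 genes tested (28.1% higher and 28.8% lower). In cKO cultures 7 of 10 changed, against 62.2% of those genes (32.4% higher and 29.8% lower). Under library totals alone the share of calls that were higher moved from 49.4 to 61.5% in controls and from 52.1 to 60.4% in cKO cultures, and the all-gene median from 0.00 to 0.12 and from 0.02 to 0.11.

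**Figure D5:**
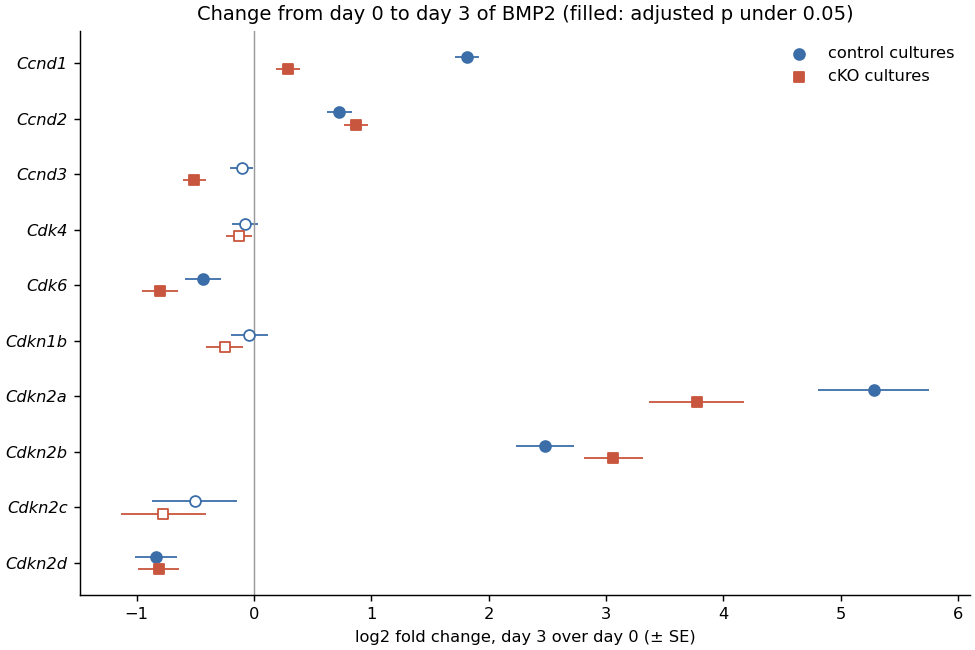
Log2 fold change from day 0 to day 3 of BMP2 with its SE in control cultures (blue circles) and cKO cultures (red squares), from the fit of all 14 cultures. Filled symbols passed an adjusted p of 0.05; Ccnd1 shows the widest called gap between the genotypes, and Cdkn2a and Cdkn2b rose in both.

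Cdkn2a (chr4:89274471-89294653, minus strand) had the largest log2 fold changes of the set in both genotype comparisons and both time comparisons of the cultures, except that at day 3 those of Ccnd3, Cdk6 and Cdkn2b were larger in size without cKO replicate 4. This locus makes 2 inhibitors from separate first exons: p19Arf, which acts through Mdm2 and p53, from the upstream start and p16Ink4a, the Cdk4/6 inhibitor, from the downstream one. The deposited counts are per gene and cannot separate them. Its neighbour Cdkn2b (chr4:89306299-89311039, minus strand) encodes the Cdk4/6 inhibitor p15Ink4b. Because Dnmt1 copies methylation at CG dinucleotides, the bases before these 3 starts are shown with each CG in capitals. They are taken from RefSeq promoters on GRCm38.p6, from 250 to 51 bases before the start, written 5′ to 3′ on the minus strand, and none overlaps an annotated GENCODE exon. The first, chr4:89294670-89294869, lies before the Arf start. The second, chr4:89282243-89282442, lies before the Ink4a start, inside the annotated span of Cdkn2a. The third, chr4:89311083-89311282, lies before Cdkn2b.
Cdkn2a Arf start: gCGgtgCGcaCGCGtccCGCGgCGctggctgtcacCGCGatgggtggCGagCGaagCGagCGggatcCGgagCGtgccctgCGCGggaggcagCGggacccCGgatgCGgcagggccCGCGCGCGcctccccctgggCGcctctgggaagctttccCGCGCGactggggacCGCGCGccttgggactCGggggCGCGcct
Cdkn2a Ink4a start: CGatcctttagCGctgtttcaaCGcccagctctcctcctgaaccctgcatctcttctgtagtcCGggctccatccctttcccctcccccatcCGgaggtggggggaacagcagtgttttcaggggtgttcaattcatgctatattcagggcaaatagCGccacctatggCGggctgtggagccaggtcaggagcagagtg
Cdkn2b start: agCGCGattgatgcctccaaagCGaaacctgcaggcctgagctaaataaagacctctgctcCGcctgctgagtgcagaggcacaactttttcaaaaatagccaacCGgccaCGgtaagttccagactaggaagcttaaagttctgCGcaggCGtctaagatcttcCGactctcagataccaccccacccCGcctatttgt
They hold 34, 7 and 10 CG dinucleotides, where the median of 32851 such windows was 4. The Arf window is among the 0.8% of windows with at least that many, whereas 38.3% of windows hold at least 7 and 29.3% at least 10. Methylation was not measured in the files used here.

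Windows were found for 8 of the 10 genes, 11 in all; Ccnd1 and Ccnd2 have no entry. The 8 windows beside the 3 shown held 5 to 25 CG dinucleotides. The motif GGGCGG, a core of Sp1 sites, was searched on both strands and occurred in 5 of the 11 windows, 1 each of Ccnd3, Cdk4, Cdkn1b, Cdkn2c and Cdkn2d, and in 24.6% of all windows. The motif GGCGCC, which reads the same on both strands, occurred in 1 window each of Cdk6, Cdkn1b and Cdkn2a (the Arf window). It was in 7.1% of all windows. The E2F-type motifs TTTCGCGC and TTTGGCGC, also searched on both strands, were in none of the 11 and in 0.2 and 0.4% of all windows. These letters describe the sequences and say nothing of binding.

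At day 0 Cdkn2a measured 0.55, 0.75 and 0.46 CPM in controls, from 21 to 37 counts per library, and 3.94, 3.39 and 3.14 CPM in cKO cultures, from 154 to 171 counts. Every cKO culture was above every control. The log2 ratio was 2.56 (SE 0.20, edgeR adjusted p 4.35e-06). After BMP2 the controls had 23.7, 25.6, 28.4 and 21.1 CPM and the cKO cultures 36.4, 38.7, 27.9 and 105.4 CPM. Replicate 3 of the cKO cultures lay just below the highest control, and replicate 4 far above all others. The log2 ratio was 1.07 (SE 0.39, edgeR adjusted p 0.0499), and 0.47 (SE 0.13, edgeR adjusted p 0.0144) without replicate 4. The call was lost without cKO replicate 2 or any 1 of the controls (adjusted p up to 0.119), with RLE scaling (adjusted p 0.0512), with no filter on low counts (adjusted p 0.0505) and with a replicate block (0.86, adjusted p 0.126).

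Cdkn2a rose strongly during the 3 days in both genotypes. With the cultures scaled together it went in controls from 0.61 ± 0.15 to 24.1 ± 2.96 CPM, a log2 ratio of 5.28 (SE 0.47, edgeR adjusted p 1.39e-06). In cKO cultures it went from 3.64 ± 0.42 to 49.8 ± 33.3 CPM, a log2 ratio of 3.77 (SE 0.41, edgeR adjusted p 5.61e-06), or 3.20 (SE 0.16, edgeR adjusted p 1.43e-09) without replicate 4. The difference between these rises, cKO minus control, was −1.51 and did not pass the test (SE 0.58, edgeR adjusted p 0.0934). Without replicate 4 the difference was −2.09 (SE 0.25, edgeR adjusted p 4.71e-05), and DESeq2 called −1.51 on all libraries (adjusted p 0.0285). In cartilage Cdkn2a had at most 1 count in any of the 8 libraries, below the floor of 3 counts, which corresponds to 1.59 to 2.73 CPM. A genotype difference was not detectable there at this depth.

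Cdkn2b measured 3.00, 3.57 and 3.65 CPM in day 0 controls and 4.58, 4.44 and 4.58 CPM in cKO cultures. The groups were close but did not overlap, with a log2 ratio of 0.41 (SE 0.11, edgeR adjusted p 0.00852). The fit of all 14 cultures, whose shared spread was larger, gave 0.42 and no call (edgeR adjusted p 0.205). Controls at day 3 had 17.1, 21.8, 23.0 and 19.7 CPM and the cKO cultures 34.5, 35.5, 28.3 and 67.1 CPM. All cKO cultures were above all controls, replicate 4 by most, with a log2 ratio of 1.02 (SE 0.26, edgeR adjusted p 0.0114) and of 0.68 without replicate 4 (SE 0.12, edgeR adjusted p 0.00122). During the 3 days Cdkn2b rose by log2 fold changes of 2.48 in controls (SE 0.25, edgeR adjusted p 3.4e-06) and 3.06 in cKO cultures (SE 0.25, edgeR adjusted p 5.97e-07). The difference between these rises was 0.58 (SE 0.33, edgeR adjusted p 0.253), and 0.26 (edgeR adjusted p 0.27) without day 3 cKO replicate 4. In cartilage Cdkn2b had 0 to 6 counts per library, with both groups spanning most of that range, and was not tested.

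Cdkn2c (chr4:109660876-109667189, minus strand) encodes the INK4 inhibitor p18Ink4c. It measured 44.7, 44.2 and 41.8 CPM in day 0 controls and 40.4, 41.2 and 42.2 CPM in cKO, with a log2 ratio of −0.08 (SE 0.04, edgeR adjusted p 0.137). Controls at day 3 had 36.5, 32.0, 32.8 and 29.9 CPM and the cKO cultures 33.2, 30.2, 34.0 and 6.31 CPM. Apart from replicate 4 the groups overlapped, and the log2 ratio was −0.34 (SE 0.42, edgeR adjusted p 0.538), or −0.02 without that library. From day 0 to day 3 the log2 change was −0.51 in controls (SE 0.36, edgeR adjusted p 0.253) and −0.78 in cKO cultures (SE 0.36, edgeR adjusted p 0.0785). Without day 3 cKO replicate 4 the spread shared by the fit was smaller and both passed, at −0.51 (SE 0.06, edgeR adjusted p 9.62e-06) and −0.45 (SE 0.07, edgeR adjusted p 5.55e-05). Without day 3 cKO replicate 3 the cKO change passed as well, at −0.97 (edgeR adjusted p 0.0473). In cartilage the range was 19.6 to 37.6 CPM in controls and 15.2 to 26.7 CPM in cKO, with a log2 ratio of −0.33 (SE 0.23, edgeR adjusted p 0.426), and of −0.56 in the estimated counts (edgeR adjusted p 0.216).

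Cdkn2d (chr9:21288410-21291407, minus strand), which encodes the INK4 inhibitor p19Ink4d, was the INK4 gene called in cartilage. Controls had 34.5, 34.1, 35.8 and 37.1 CPM and cKO samples 21.0, 19.2, 20.5 and 25.8 CPM there, from 22 to 72 counts per library. All cKO samples were below all controls, with a log2 ratio of −0.71 (SE 0.17, edgeR adjusted p 0.0241) and of −0.84 in the estimated counts (SE 0.16, edgeR adjusted p 0.00719). The call was lost with DESeq2 (adjusted p 0.137), with library totals alone (adjusted p 0.0647), and without cKO replicate 1 or 3 or control replicate 1, 2 or 4 (adjusted p up to 0.0614). In cultures the log2 ratio was 0.13 at day 0 (SE 0.07, edgeR adjusted p 0.146) and 0.16 at day 3 (SE 0.20, edgeR adjusted p 0.54), or 0.27 at day 3 without cKO replicate 4. Control replicate 1 of day 3 stood out with 12.2 CPM against 7.30 to 7.68 CPM in the other controls. From day 0 to day 3 Cdkn2d fell in both genotypes, with log2 fold changes of −0.84 in controls (SE 0.18, edgeR adjusted p 0.00128) and −0.81 in cKO cultures (SE 0.17, edgeR adjusted p 0.00127). The difference was 0.02 (SE 0.25, edgeR adjusted p 0.971), or 0.14 without day 3 cKO replicate 4.

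The makeup of the summed mRNA of the INK4 genes differed between the days in both genotypes. Cdkn2a counts do not separate p19Arf from p16Ink4a, so how much of these shares and sums is INK4 inhibitor mRNA cannot be told. Per kb of exon, Cdkn2a and Cdkn2b together made up 10.4 ± 1.13% of the summed level of the INK4 genes in control and 19.8 ± 1.42% in cKO cultures at day 0 (SD, n = 3 each). At day 3 they made up 66.8 ± 4.54% and 79.0 ± 11.1% (SD, n = 4 each), with 95.1% in cKO replicate 4. Cdkn2c led in untreated controls with 57.2 ± 0.55% and held 22.9 ± 1.78% at day 3. The summed INK4 level was 29.6 ± 0.80 and 33.0 ± 0.99 CPM per kb at day 0. At day 3 it was 52.1 ± 3.78 CPM per kb in controls and 86.3 ± 34.2 CPM per kb in cKO cultures, whose lowest sample, at 61.1, was above the highest control at 56.1.

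Cdkn1b (chr6:134920401-134925513, plus strand), which encodes p27Kip1, was not called in any comparison by edgeR. Its level was 60.2 to 62.9 CPM in controls and 54.1 to 61.0 CPM in cKO at day 0, and 56.1 to 70.3 against 35.0 to 62.5 CPM at day 3, where the lowest value was that of cKO replicate 4. The log2 fold changes were −0.08 at day 0 (SE 0.05, edgeR adjusted p 0.178), −0.28 at day 3 (SE 0.17, edgeR adjusted p 0.211) and 0.03 in cartilage (SE 0.13, edgeR adjusted p 0.924). Without day 3 cKO replicate 4 the day 3 value was −0.13 (edgeR adjusted p 0.241). The cartilage levels were 119.0 ± 15.0 CPM in controls and 120.7 ± 5.86 CPM in cKO samples (SD, n = 4 each). From day 0 to day 3 the log2 change was −0.04 in controls (SE 0.16, edgeR adjusted p 0.849) and −0.25 in cKO cultures (SE 0.16, edgeR adjusted p 0.182), or −0.09 without that library. The difference between these changes was −0.21 (SE 0.22, edgeR adjusted p 0.57), or −0.05 without day 3 cKO replicate 4.

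The rest of the G1 pathway was read from 32 further genes, of which 31 were tested in the cultures and 27 in cartilage. At day 0, 16 were higher and 4 lower in cKO cultures (median log2 fold change 0.11), where 33.0% of all genes tested were called higher and 31.6% lower. At day 3, 5 were higher and 6 lower (median −0.01), against 25.5 and 22.6% of all genes. Without cKO replicate 4 these were 8 and 6, against 28.8 and 26.4%. In cartilage 1 was higher and none lower (median 0.06), against 3.15 and 3.04%. Among the other Cip/Kip inhibitors, Cdkn1a (p21Cip1) measured 118.0 ± 3.57 CPM in day 0 controls and 236.7 ± 13.8 CPM in cKO, a log2 ratio of 1.004 (SE 0.05, edgeR adjusted p 2.06e-07). At day 3 it was 572.7 ± 54.4 against 553.9 ± 35.9 CPM, a log2 ratio of −0.05 (SE 0.10, edgeR adjusted p 0.702). Like Ccnd1, Cdkn1a had a called difference between the days, of −1.07 (SE 0.11, edgeR adjusted p 0.000104). Cdkn1c (p57Kip2), an inhibitor abundant in maturing chondrocytes, was 517.6 ± 8.99 CPM in day 0 controls and 206.5 ± 50.7 CPM in cKO cultures (log2 fold change −1.33, SE 0.14, edgeR adjusted p 3.07e-05). At day 3 it was 924.3 ± 103 and 124.6 ± 53.8 CPM (log2 fold change −2.89, SE 0.36, edgeR adjusted p 0.000318), and in cartilage the log2 ratio was −0.40 (SE 0.14, edgeR adjusted p 0.104). Cdkn1c, too, had a called difference between the days, negative like that of Cdkn1a. Of the 31 pathway genes tested, 2 had a positive and 5 a negative call of this kind, against 9.94 and 6.89% of all genes. Without day 3 cKO replicate 4 these were 5 and 9, against 15.7 and 11.6%.

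Downstream of the cyclin D kinases, Ccne1, Ccne2 and Cdk2, the cyclin E step into DNA synthesis, were higher in cKO cultures at day 0 by log2 fold changes of 0.27, 0.52 and 0.23 (edgeR adjusted p 0.00173, 6.88e-06 and 0.00291). At day 3 none of the 3 was called, at 0.14, 0.39 and −0.38. Rb1, the retinoblastoma gene itself, was higher in cKO cultures at day 0 (0.59, SE 0.08, edgeR adjusted p 0.000116) and at day 3 (1.40, SE 0.14, edgeR adjusted p 0.000119). Its relative Rbl1 was higher at day 0 (0.35, edgeR adjusted p 6.23e-05) and Rbl2 had −0.01 (edgeR adjusted p 0.944). Among other pathway genes at day 0, E2f2 and E2f7 had the largest rises (1.002 and 0.751), and Mnat1 and Cdk7, subunits of the Cdk-activating kinase, the largest falls (−0.56 and −0.46, edgeR adjusted p 5.96e-06 and 3.16e-05). At day 3 E2f4 and Myc were higher (0.52 and 0.51) and E2f1 and Cdk7 lower (−0.61 and −0.50). Without cKO replicate 4 these genes kept their calls (0.57, 0.65, −0.735 and −0.46). In that fit E2f2 and E2f7 were also called higher (0.87 and 0.81, edgeR adjusted p 0.0234 and 0.0188). The 1 call in cartilage was Ccnh, the cyclin of that kinase, at 1.03 (SE 0.19, edgeR adjusted p 0.00299).

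Of 16 genes that mark dividing cells, such as Mki67, Pcna and Top2a, 15 were higher in cKO cultures at day 0 and none lower (median log2 fold change 0.40), against 33.0% higher and 31.6% lower over all genes tested. At day 3, 1 was higher and 2 were lower (median 0.20), against 25.5 and 22.6%. Without cKO replicate 4 the counts were 4 and 3 (median 0.47), against 28.8 and 26.4%. For the difference between days none of the 16 was called, where 9.94% of all genes tested were called higher and 6.89% lower. Without day 3 cKO replicate 4, 1 difference was called positive and 5 were called negative, against 15.7 and 11.6%. In cartilage none of 13 tested was higher and Rrm2 was lower, against 3.15 and 3.04%. From day 0 to day 3, 15 of 16 fell in controls and 15 of 16 in cKO cultures, with medians of −1.81 and −2.04, where 28.8 and 29.8% of all genes fell. Their summed level ran from 1625 to 1773 CPM in day 0 controls and from 2106 to 2301 CPM in day 0 cKO cultures. At day 3 it was 588 to 912 CPM in controls and 506 to 864 CPM in cKO cultures. The genes whose log2 CPM followed Ccnd1 most closely over the 14 cultures were Arid4a, Def6 and Cpped1, with Pearson r of 0.977, 0.976 and 0.973. For Cdk6 they were Acot7, Gm26558 and Pxdc1 (0.958, 0.951 and 0.942), and for Cdkn2a they were Snn, Ephx1 and Fam210b (0.994, 0.992 and 0.991). These values describe 14 cultures that share 4 groups and, within a day, 1 depth range.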

How the data were processed

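RNA was measured in 14 primary chondrocyte cultures and 8 cartilage samples. For the cultures the authors deposited estimated counts per gene, from a directional kit on total RNA per the labels, and the aligner and counter are not given in the sources used here. Estimated counts were rounded to whole numbers. For cartilage, made with BRB-seq, a barcoded 3′ method with molecular identifiers, the authors deposited whole-number counts (used here as the main values) and estimated counts (an alternative). The submitters' processing notes list, for cartilage, UMI-tools 1.1.1, Trim Galore 0.6.7, HISAT2 2.2.1, featureCounts 2.0.1 and DESeq2 1.34.0, and the build GRCm38 for all samples. Gene positions and exon lengths came from GENCODE M21, matched for 34582 of 34866 culture identifiers and 23884 of 23911 cartilage identifiers. It may differ from the annotation the authors used.

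Genes passing filterByExpr (minimum count 10, total 15) were tested with edgeR 4.0.16 in R 4.3.3 (quasi-likelihood test, TMM scaling, Benjamini-Hochberg). Genotypes were compared on the samples of each setting alone (day 0, day 3, cartilage), with sex as covariate in cartilage. The change over days and its difference between genotypes came from 1 fit of 14 cultures in 4 groups. Comparisons at the same day or of the same genotype share samples. Alternatives were DESeq2 1.42.0, RLE scaling, library totals alone, no filter, a replicate block, other sample sets and leaving out each sample. The genotype comparisons were also run on simulated counts in which far fewer genes changed than were called in the cultures. The change over days and its difference between genotypes were not simulated. Culture titles name biological replicates, and no source says whether these were separate animals or litters, so p-values measure the spread between these samples. Floors (3 counts) cover counting error only.

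The text names all 10 genes whatever their values, 8 fixed pathway genes, per genotype comparison up to 2 rising and 2 falling called pathway genes (mean log2 CPM no lower than 1), and the 3 genes most correlated with Ccnd1, Cdk6 and Cdkn2a. The 10 genes and all lists were chosen with earlier results of these data known.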

Additional observations from a re-analysis of the deposited data

Results flagged for a closer look

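Each of the 10 genes was examined in the 4 groups of 4 samples for a highest or lowest sample far from the rest. Of these 40 sets, those of Cdkn2a in cartilage, at the floor of 3 counts, were left out. By chance about 1 set in 20 is picked out this way, and 4 were. Of these, 3 came from the library of day 3 cKO replicate 4: Cdk4 at 136.1 CPM against 187.6 to 193.0 CPM in the other cKO cultures, Cdkn2a at 105.4 against 27.9 to 38.7 CPM, and Cdkn2c at 6.31 against 30.2 to 34.0 CPM. The fourth was Cdkn2d in day 3 control replicate 1, at 12.22 CPM against 7.30 to 7.68 CPM in the other controls.

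The genotype effect on Ccnd1 differed between untreated and BMP2-treated cultures, by −1.53 on the log2 scale (edgeR adjusted p 4.46e-05). Without single libraries this difference ranged from −1.60 to −1.44 with adjusted p up to 0.000364, so no single library set it.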

How the results depend on the processing

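For the day changes, the alternatives include fits that left out a library of the other genotype, which can leave the log2 fold change almost fixed. The control day change of Ccnd1, for example, was 1.82 with and without day 3 cKO replicate 4. Of 962 values of the 10 genes under the alternatives, 874 kept their direction and their side of the threshold, 45 lost a call, 16 gained one and 27 changed sign. None of the 27 was called in either fit. With library totals alone they were Cdkn1b (0.0253) and Cdkn2c (0.0289) at day 0, the control day change of Ccnd3 (0.0193), Cdk4 (0.0499) and Cdkn1b (0.0845), and the Cdkn2d difference between days (−0.00808). With no filter on low counts they were Ccnd1 at day 3 (−0.00812) and Cdkn1b in cartilage (−0.0110), and with all 14 cultures fitted together Ccnd1 at day 3 (−0.00879). Without single libraries, values ranged from −0.0810 to 0.0913 for Ccnd1 at day 3, −0.0469 to 0.0953 for Cdkn1b in cartilage, and −0.0804 to 0.0199 for the control day change of Cdkn1b. For the difference between days they ranged from −0.109 to 0.0652 for Cdk4, −0.442 to 0.0565 for Cdkn2c and −0.0572 to 0.2297 for Cdkn2d. The cKO day change of Dnmt1, which is not among the 962, ranged from −0.395 to 0.0836. For Cdk4, Cdkn2c and Dnmt1 the upper end is the value without day 3 cKO replicate 4.

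Deviations from the group means correlated from −0.215 to 0.265 between samples with the same replicate number and from −0.328 to 0.212 between those with different numbers. With 3 or 4 samples per group this cannot exclude that some samples were paired. In cartilage the numbers also follow sex. A replicate block left 3 of the 10 genes called at day 3 in place of 5, losing Cdk4 (adjusted p 0.0773) and Cdkn2a (0.126). For the difference between days it left 2 in place of 1, adding Cdkn2a (adjusted p 0.048), and the control day change of Cdkn1b was 0.0605. RLE scaling left 3 called at day 3, and DESeq2 gave 3 for the difference between days, adding Ccnd3 (adjusted p 0.0313) and Cdkn2a (0.0285). With library totals alone Ccnd2 (0.16) and Cdkn2d (0.23) were called at day 0, where the median of all genes moved to 0.12. Without single libraries 2 to 5 of the 10 genes were called at day 3 and 1 to 3 for the difference between days, the 3 being without day 3 cKO replicate 4. Over all genes, cartilage calls were 544, against 357 with DESeq2, 1044 with no filter and 362 to 630 without single libraries (362 without cKO replicate 4). The difference between days had 2509 calls, against 1591 to 4051 without single libraries (4051 without day 3 cKO replicate 4). At day 0, 6260 genes were called in the fit of all 14 cultures, against 10023. The low cartilage totals limit what can be seen there: Cdkn2a and Cdkn2b lay near or under 3 counts.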
